A study of Rattus norvegicus with 40 samples.

Results

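The 7 genes described here, Nefl, Dnaaf1, Defb1, Pln, Svop, Vsx1 and Slc16a5, had almost no RNA-seq counts in untreated rat liver and rose under N-nitrosodiethylamine (DEN), a carcinogen that damages DNA in hepatocytes and gives liver tumors in rats. They were picked by name, out of 17337 genes in the count files, for few counts in the livers without DEN and a large rise in at least some livers with DEN. That choice used the contrast of DEN with no DEN and set no numeric limit, so the levels against untreated liver are given below as a description without a test. The choice did not use the differences between weeks of DEN, or between nodules and the liver around them, which were tested. A high level in some group with DEN was however part of it, and the genes and tests were chosen with earlier results of these data known.

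Male Fischer 344 rats, 7 weeks old at the start, received DEN by intraperitoneal injection once a week at 50 mg/kg. Groups were collected after 8 weeks of DEN (4 rats), after 14 weeks of DEN (4 rats), and at 20 weeks, after 14 weeks of DEN and 6 weeks without it (4 rats). Controls of the same ages received no DEN (4 rats at each of 8, 14 and 20 weeks). Non-tumor liver (NT) was sequenced from every DEN rat and 2 nodules (T) from each DEN rat at 14 and 20 weeks, so the 40 libraries came from 24 rats, 28 of them from the 12 DEN rats. The 20-week rats were 6 weeks older than the 14-week rats as well as 6 weeks past the last injection. The controls of the same ages give the change with age in rats without DEN. Rats carry a letter, F or H, whose meaning was not given in the labels: 4 DEN rats (F09 and F10 at 8 weeks, F06 at 14 weeks and F03 at 20 weeks) were F and all controls were H, so the tests between groups of rats were also run in H rats alone.

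Libraries held 20528515 to 160622633 counted read pairs (median 30477421), the deepest, the NT liver of H26 at 20 weeks, 4.08 times the next. At the median depth, 1 CPM, a count per 1000000 counted pairs, was 30.5 counts. Hepatocyte transcripts (Alb, Ttr, Apoa1 and 5 others) summed to 9.88e+04 to 2.93e+05 CPM in every library, as the label liver says. Nodule 1 of F06 stood apart, with 34.5% of its pairs outside exons (median of all libraries 23.9%). Levels are given in CPM after scaling by trimmed mean of M values (TMM), and since CPM is not per length, levels are compared between libraries and not between genes. In these bulk samples, fewer cells of a type and less RNA per cell cannot be told apart.

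None of the 7 genes is a usual marker of adult hepatocytes. Nefl encodes the light chain of neurofilaments, the intermediate filaments of axons. Dnaaf1 is needed to assemble the dynein arms that beat motile cilia. Defb1 is a beta-defensin, an antimicrobial peptide made by epithelia. Vsx1 is a homeobox transcription factor of retinal bipolar cells. Slc16a5 belongs to the monocarboxylate transporter family of the plasma membrane. Pln, phospholamban, is the small membrane protein that inhibits the calcium pump Atp2a2 (SERCA) in heart muscle, and Svop encodes a transporter-like protein of synaptic vesicles.

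Promoters are shown for Pln and Svop, which moved together, and for Vsx1, which followed the other time course. They are the 250 bases before the annotated gene start, 5′ to 3′ on the strand of the gene, from the RefSeq promoters of build GRCr8, where 3 of the 7 genes were matched. Pln is on the plus strand at chr20:33172244-33172493, Svop on the plus strand at chr12:48191299-48191548 and Vsx1 on the minus strand at chr3:159982293-159982542.
Pln: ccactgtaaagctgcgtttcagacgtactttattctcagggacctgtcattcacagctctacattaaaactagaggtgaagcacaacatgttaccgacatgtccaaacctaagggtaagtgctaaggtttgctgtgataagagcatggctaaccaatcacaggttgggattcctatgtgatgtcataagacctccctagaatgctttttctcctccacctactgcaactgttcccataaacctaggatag
Svop: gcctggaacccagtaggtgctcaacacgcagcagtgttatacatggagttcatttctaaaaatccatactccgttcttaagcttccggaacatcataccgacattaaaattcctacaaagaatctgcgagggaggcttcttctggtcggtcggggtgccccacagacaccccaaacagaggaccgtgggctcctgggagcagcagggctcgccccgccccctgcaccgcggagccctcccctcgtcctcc
Vsx1: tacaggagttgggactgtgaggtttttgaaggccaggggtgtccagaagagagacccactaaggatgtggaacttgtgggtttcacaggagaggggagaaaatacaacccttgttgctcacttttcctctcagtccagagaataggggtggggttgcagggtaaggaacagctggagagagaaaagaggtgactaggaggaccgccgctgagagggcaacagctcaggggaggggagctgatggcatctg
No letters stand in capitals because none of the 5 motifs searched, on both strands, was found in these 3 windows. The motifs were the AP-1 site TGANTCA (in 6.36% of 27457 RefSeq promoters of the same length), the core of the antioxidant response element TGACNNNGC (10.2%), the TATA box TATAAA (13.1%), the E-box CACGTG (5.79%) and the p53 response element with at most 2 mismatches and a spacer of up to 13 bases (1.62%), the last chosen after the values of the genes had been seen. The windows held 3 CG pairs in Pln, 13 in Svop and 2 in Vsx1, against a median of 6 over all promoters, with GC shares of 44%, 57.2% and 54% (median 52%).

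Without DEN the 7 genes were at or near 0. Of the 84 values in 12 control libraries, 52 were 0 counts, 77 were at most 3 counts, and the highest was 8 counts. Slc16a5 had 2 counts in all, both in H05 at 8 weeks, and Defb1 had 3 counts, all in H05. Nefl summed to 4 counts over the 12 libraries (at most 2 in a library), Dnaaf1 to 10 (at most 4) and Vsx1 to 10 (at most 3). H05 thus held all or a large share of the few control counts of Slc16a5, Defb1 and Nefl, and it had 1 count each of Pln and Svop. Pln and Svop were less silent, with 24 and 36 counts and highest values of 5 and 8 counts, and their control levels lay between 0 and 0.276 CPM for Pln and 0 and 0.32 CPM for Svop.

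Under DEN no library lacked any of the 7 genes. Every DEN rat lay above every control rat of its week for 7 of 7 genes in NT liver at 8 weeks (17.9% of the genes tested did so), for 7 of 7 in NT liver at 14 weeks (25.9%) and in nodules at 14 weeks (28%), and for 6 of 7 in NT liver (16.2%) and nodules (27.4%) at 20 weeks, where Pln overlapped with its controls. The genes were picked on this contrast, so these counts only describe them. For Slc16a5 and Vsx1 at 8 weeks the gap was narrow, with 3 counts in the lowest DEN library and 2 in the highest control. The shares in brackets are over genes that passed the filter on low counts, which genes with so few counts need not pass. Their time courses fell into 2 patterns, a grouping seen in the values and not tested: Nefl, Dnaaf1, Defb1, Vsx1 and Slc16a5 were low at 8 weeks and high at 14 and 20 weeks, while Pln and Svop were highest at 8 weeks and fell by 20 weeks, Pln to the level of its controls and Svop to a level above them.

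**Figure D1:**
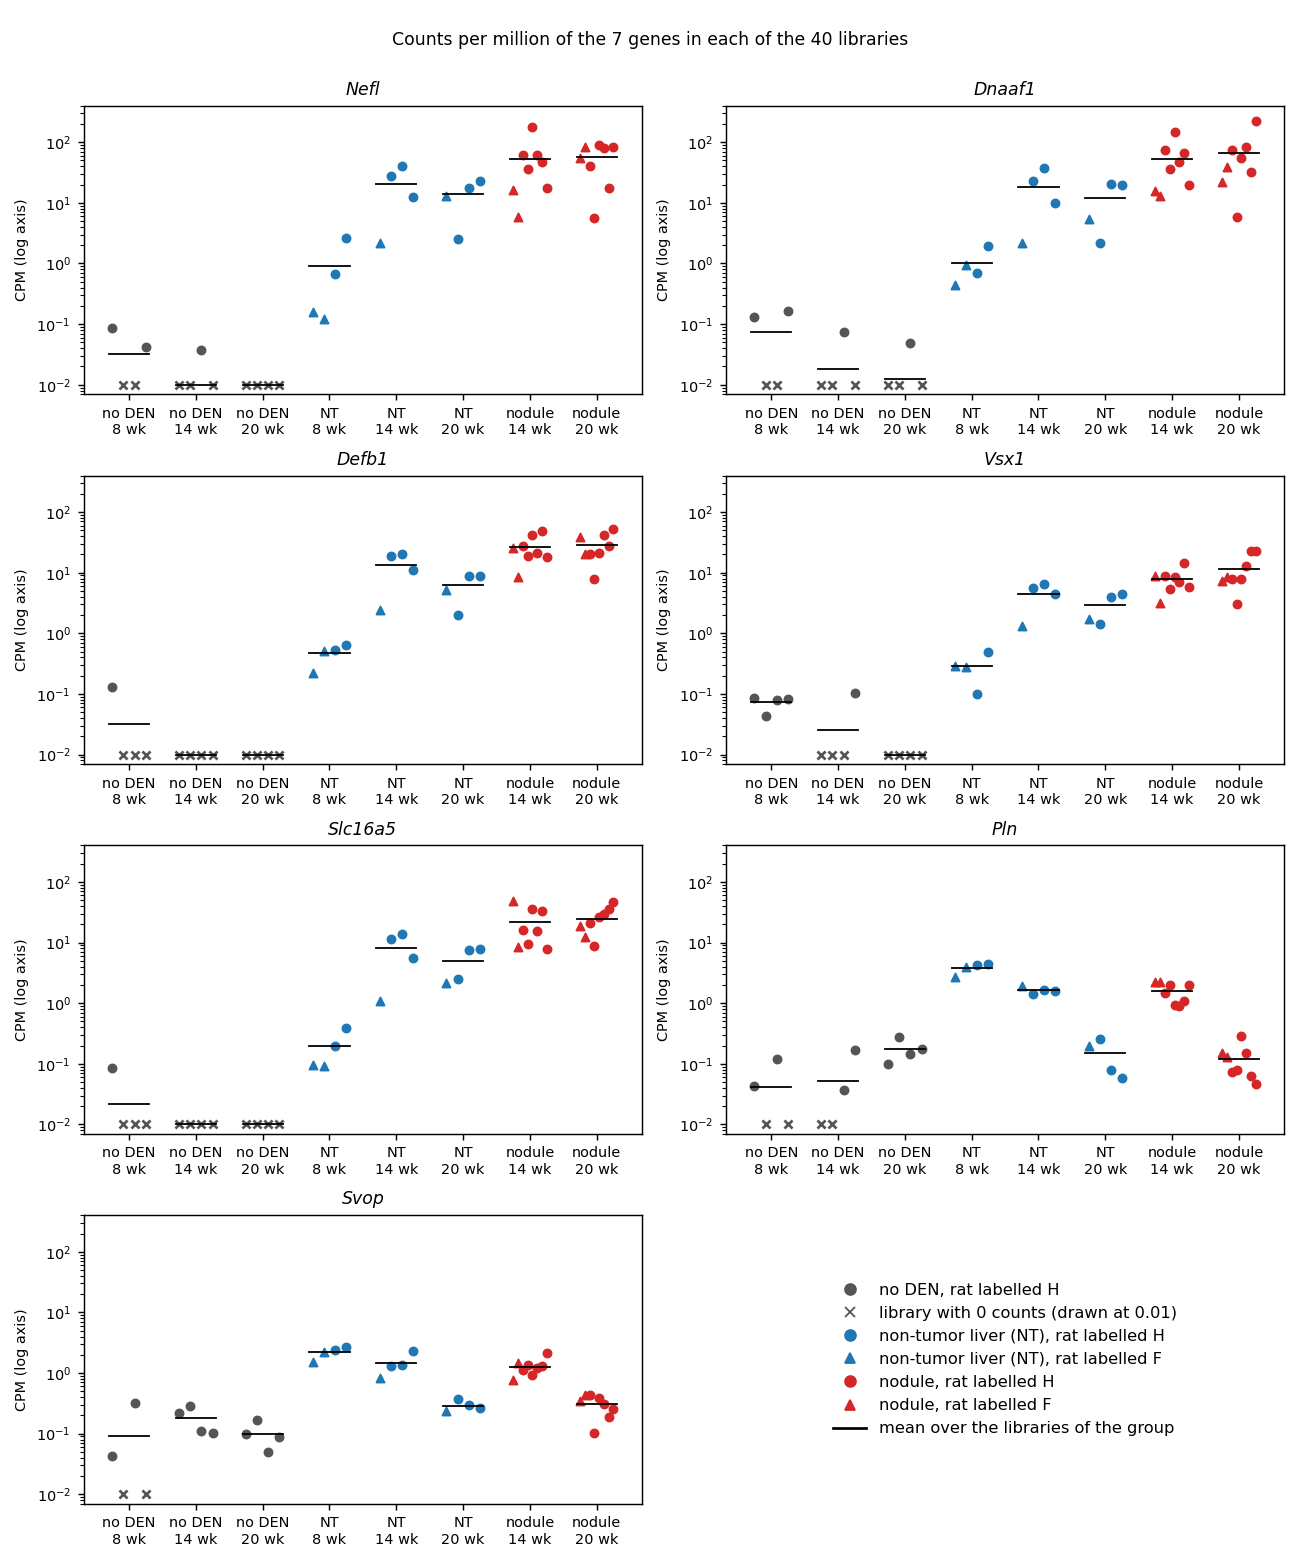
TMM-scaled CPM (log axis) of each of the 7 genes in each of the 40 libraries, by group; triangles are F rats, circles H rats, crosses libraries with 0 counts drawn at 0.01, and lines group means over libraries (means under 0.01 are drawn at 0.01). Nefl, Dnaaf1, Defb1, Vsx1 and Slc16a5 climb from 8 to 14 weeks and are highest in nodules, with F06 the lowest NT liver at 14 weeks, whereas Pln and Svop fall from 8 to 20 weeks.

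Nefl was barely present after 8 weeks of DEN. In NT liver it measured 0.159, 0.122, 0.659 and 2.65 CPM in rats F09, F10, H17 and H18, or 4 to 74 counts. At 14 weeks it measured 2.21, 27.3, 40.8 and 12.7 CPM in F06, H21, H22 and H23. The 3 H rats lay far above all 8-week rats, while F06 lay below H18, so the groups overlapped by this single pair. Nefl rose from 8 to 14 weeks by a log2 difference of 4.58 ± 1.02 (SE), with an adjusted p of 0.0126 (edgeR's quasi-likelihood test, Benjamini-Hochberg adjusted over 11182 genes). At 20 weeks NT liver held 12.9, 2.55, 17.7 and 23 CPM in F03, H25, H26 and H28, within the range at 14 weeks, and the log2 difference from 14 weeks of -0.57 ± 0.81 did not pass the test (adjusted p 0.696, edgeR). In nodules Nefl reached 5.81 to 179 CPM at 14 weeks (median 41, 8 nodules) and 5.66 to 89.1 CPM at 20 weeks (median 67.3). Against the single control count at 14 weeks, its mean in NT liver was 2245 times higher, with a 95% Poisson interval of 403 to 88660 that covers counting error in the controls only. With 0 counts in the 20-week controls, nodules were at least 391-fold higher there, taking 3 counts in each control library as the floor. A ratio to the control counts and a bound to this floor have different denominators and are not to be compared.

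Dnaaf1 followed the same course, with NT levels of 0.446, 0.942, 0.692 and 1.93 CPM at 8 weeks (F09, F10, H17 and H18). At 14 weeks its NT levels were 2.15, 23.4, 37 and 9.85 CPM in F06, H21, H22 and H23, all above the 8-week rats although F06 only just. The rise was 4.18 ± 0.84 on the log2 scale (adjusted p 0.0086, edgeR). At 20 weeks F03, H25, H26 and H28 held 5.51, 2.21, 20.6 and 20.1 CPM in NT liver, and the difference from 14 weeks (log2 -0.57 ± 0.86) did not pass the test (adjusted p 0.716, edgeR). The rats were split at 20 weeks, with H25 more than 9-fold below H26 (9.34-fold). Nodules held 12.9 to 149 CPM at 14 weeks (median 42.1) and 5.74 to 221 CPM at 20 weeks (median 46.8), the highest with 9646 counts in nodule 2 of H28. Relative to the 2 control counts at 14 weeks, the NT mean was 978 times higher (95% Poisson interval 271 to 8072).

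Defb1 varied least between rats of the 5 late genes at 8 weeks, with 0.223, 0.516, 0.527 and 0.644 CPM in NT liver. It stood at 2.46, 18.9, 20.4 and 11.2 CPM in F06, H21, H22 and H23 at 14 weeks, without overlap with 8 weeks. The rise was 4.78 ± 0.67 on the log2 scale (adjusted p 0.00298, edgeR). In NT liver at 20 weeks it measured 5.24, 2.04, 8.88 and 8.97 CPM (F03, H25, H26 and H28), lower on average (6.28 ± 3.32, SD, n = 4) than at 14 weeks (13.2 ± 8.23, SD, n = 4) but overlapping, and this difference did not pass the test (log2 -1.07 ± 0.63, adjusted p 0.333, edgeR). Nodules held 8.57 to 47.9 CPM at 14 weeks (median 23.5) and 7.87 to 52.1 CPM at 20 weeks (median 24.2). No control library had a count of Defb1 at 14 or 20 weeks, so NT liver was at least 119-fold and 42.5-fold higher and nodules at least 236-fold and 195-fold higher at these weeks.

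Vsx1 was the gene nearest to its controls at 8 weeks, with NT levels of 0.287, 0.273, 0.0988 and 0.501 CPM against at most 0.0859 CPM without DEN, a ratio of 3.93 (95% Poisson interval 1.91 to 9.78). At 14 weeks NT liver of F06, H21, H22 and H23 held 1.32, 5.61, 6.5 and 4.52 CPM, all above the 8-week rats, with a rise of 3.94 ± 0.55 on the log2 scale (adjusted p 0.00297, edgeR). F03, H25, H26 and H28 held 1.74, 1.44, 3.99 and 4.43 CPM at 20 weeks, which overlapped with 14 weeks (log2 -0.61 ± 0.50, adjusted p 0.483, edgeR). In nodules the levels were 3.22 to 14.5 CPM at 14 weeks (median 7.7) and 3.01 to 22.9 CPM at 20 weeks (median 8.21). Both nodules of H28 stood above all others at 20 weeks, at 22.7 and 22.9 CPM. The 20-week controls had no counts, so nodules were at least 78.7-fold higher.

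Slc16a5 began lowest against its later level, with 3 to 11 counts in NT liver at 8 weeks (0.0955, 0.0911, 0.198 and 0.393 CPM in F09, F10, H17 and H18). It stood at 1.08, 11.6, 14 and 5.55 CPM in F06, H21, H22 and H23 at 14 weeks, clear of all 8-week rats. The log2 rise of 5.38 ± 0.86 (adjusted p 0.00397, edgeR) was the largest among the 7 genes. At 20 weeks NT liver held 2.17, 2.46, 7.62 and 7.9 CPM (F03, H25, H26 and H28), which did not pass the test against 14 weeks (log2 -0.66 ± 0.70, adjusted p 0.596, edgeR). Nodules held 7.83 to 49.4 CPM at 14 weeks (median 15.7) and 8.68 to 46.4 CPM at 20 weeks (median 23.6). The highest 14-week value was nodule 1 of F06, the library with the largest share of pairs outside exons, and the next was 36.1 CPM. Controls had no counts at 14 and 20 weeks, and nodules were at least 193-fold and 167-fold higher.

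In these 5 genes F06 was the lowest NT liver at 14 weeks and H25 or F03 the lowest at 20 weeks. In rats labelled H alone, the rise from 8 to 14 weeks passed the test for the same 5 genes, with log2 values of 4.05 for Nefl, 4.17 for Dnaaf1, 4.84 for Defb1, 4.22 for Vsx1 and 5.13 for Slc16a5. The part of the letter in the levels of the F rats was not tested.

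Pln ran the other way. It was highest after 8 weeks of DEN, at 2.74, 3.89, 4.28 and 4.5 CPM in NT liver (F09, F10, H17 and H18), and already lower at 14 weeks, at 1.94, 1.4, 1.64 and 1.62 CPM in F06, H21, H22 and H23. The 2 groups did not overlap, and the fall of 1.23 ± 0.19 on the log2 scale passed the test (log2 -1.23, adjusted p 0.00336, edgeR). At 20 weeks 2 to 13 counts were left in NT liver, or 0.2, 0.255, 0.0803 and 0.0579 CPM in F03, H25, H26 and H28, all below every 14-week rat (log2 -3.67 ± 0.38, adjusted p 0.0022, edgeR). The controls went the other way, from 0.0519 ± 0.0812 CPM at 14 weeks to 0.174 ± 0.0752 CPM at 20 weeks (SD, n = 4 each). The NT level at 20 weeks was thus that of its controls (0.098 to 0.276 CPM), with a ratio of 0.866 (95% Poisson interval 0.516 to 1.58). The ratio to controls had been 91.5 (35.7 to 336) at 8 weeks and 29.7 (13.7 to 81) at 14 weeks. Nodules held 0.885 to 2.23 CPM at 14 weeks (median 1.72) and 0.0459 to 0.283 CPM at 20 weeks (median 0.104) and thus lay at the level of NT liver at each week.

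Svop measured 1.5, 2.25, 2.37 and 2.72 CPM in NT liver at 8 weeks (F09, F10, H17 and H18) and 0.83, 1.32, 1.37 and 2.34 CPM at 14 weeks (F06, H21, H22 and H23). These groups overlapped, and the log2 difference of -0.59 ± 0.30 did not pass the test (adjusted p 0.153, edgeR). At 20 weeks F03, H25, H26 and H28 held 0.234, 0.368, 0.296 and 0.26 CPM, below every 14-week rat (log2 -2.33 ± 0.34, adjusted p 0.00894, edgeR). The controls of Svop held 0.18 ± 0.0899 CPM at 14 weeks and 0.1 ± 0.0486 CPM at 20 weeks (SD, n = 4 each), or 19 and 8 counts in all. Unlike Pln, Svop lay above its 20-week controls (0.0489 to 0.166 CPM) without overlap, at a ratio of 2.96 (95% Poisson interval 1.5 to 6.86) that had been 23.3 (12.3 to 51) at 8 weeks and 8.35 (5.35 to 13.9) at 14 weeks. Nodules held 0.778 to 2.12 CPM at 14 weeks (median 1.25) and 0.104 to 0.442 CPM at 20 weeks (median 0.325).

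In all, 6 of 7 genes were called between NT liver at 8 and 14 weeks (adjusted p of at most 0.05 and log2 of at least 0.5 in size), 5 upward and 1 downward, where 17.8% of 11182 genes were called, 10.4% upward and 7.38% downward. At 8 weeks Nefl (4 to 74 counts), Defb1 (7 to 18), Vsx1 (3 to 14) and Slc16a5 (3 to 11) were low, and they passed the filter on low counts through their 14-week libraries. Pln, with 2 to 13 counts in NT liver at 20 weeks, likewise entered the comparisons of 20 with 14 weeks through 14 weeks. The shares of all genes are thus a scale for these calls and no independent support for them. Every 14-week rat lay above every 8-week rat for 4 genes (Dnaaf1, Defb1, Vsx1 and Slc16a5), as for 14.4% of genes tested, and below for 1 (Pln), as for 13.7%. Between NT liver at 14 and 20 weeks 2 of 7 were called, both downward, where 2.77% of 11188 genes were called and 1.97% downward, and both lay below every 14-week rat, as did 6.47% of genes. Those 2, Pln and Svop, were also called downward in nodules from 14 to 20 weeks, with log2 differences of -3.74 ± 0.46 (adjusted p 0.0243, edgeR) and -2.09 ± 0.28 (adjusted p 0.0312, edgeR), where 0.11% of 11785 genes were called and 0.102% downward. With the nodules of each rat added, neither gene's rats overlapped between the weeks, and 1.71% of genes were lower in that way. The calls in nodules were lost when any single rat other than F06 was left out (0 of 7 called), and in H rats alone the log2 differences were -3.62 (adjusted p 0.113) and -2.30 (adjusted p 0.0992). The other 5 genes were not called between nodules of the 2 weeks, and their groups overlapped.

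**Figure D2:**
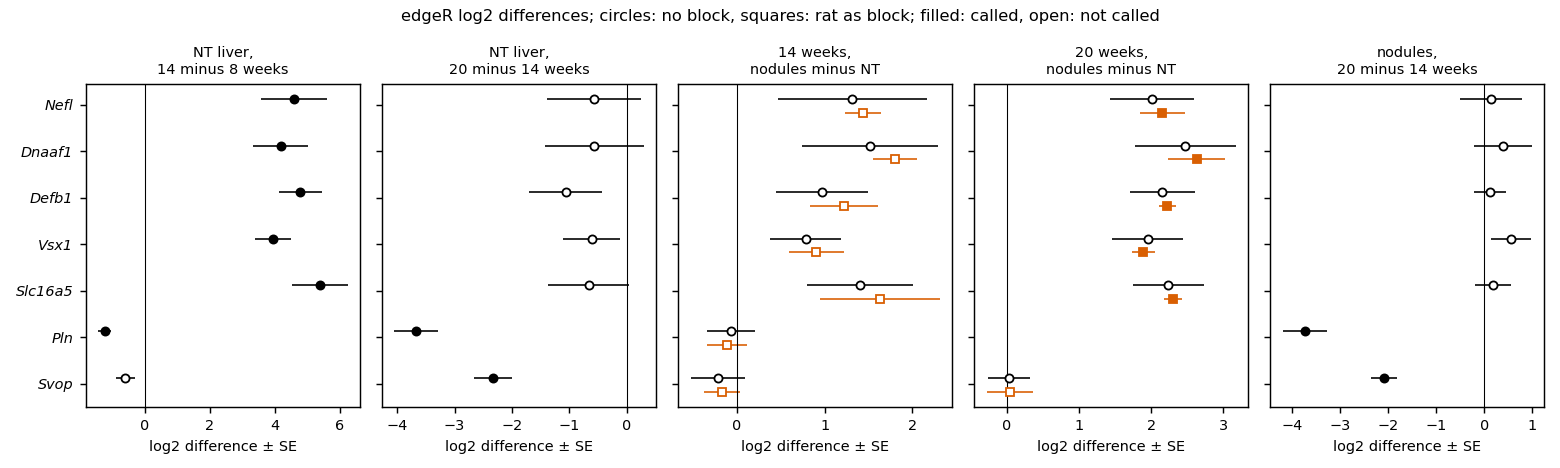
Log2 differences with standard errors for the 7 genes in 5 comparisons within DEN libraries. The choice of the genes did not use these differences, but a high level in some group with DEN was part of it. Circles are fits without the rat as a block, squares with it, filled symbols are called and open ones not. Nefl, Dnaaf1, Defb1, Vsx1 and Slc16a5 lie at 3.94 to 5.38 from 8 to 14 weeks and near 2 in nodules against NT liver at 20 weeks, while Pln and Svop fall from 14 to 20 weeks in NT liver and nodules. The scales differ between panels.

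Whether nodules differed from the liver around them was asked in the same rats. At 14 weeks each of the 8 nodules had more Nefl, Dnaaf1 and Defb1 than the NT liver of its own rat, and 7 of 8 had more Vsx1 and Slc16a5. The nodule was 2.45 times its NT liver at the median for Nefl (1.3 to 7.47), 3.63 times for Dnaaf1 (1.28 to 7.32), 1.84 times for Defb1 (1.01 to 10.6), 1.43 times for Vsx1 (0.973 to 6.74) and 2 times for Slc16a5 (0.816 to 45.9). The highest ratio of each of the 5 genes belonged to nodule 1 of F06, the library that stood apart, and the NT liver of F06 was the lowest. With the 2 nodules of each rat added, these 5 genes were higher than in NT liver in 4 of 4 rats, as were 20.8% of genes tested, although the rats of the 2 tissues overlapped for all 7. None of the 7 genes was called at 14 weeks (0 of 11466 genes were called, 0%), with log2 differences of 0.78 to 1.52 for these 5 genes. With nodule 1 alone these were 1.87 for Nefl, 2.08 for Dnaaf1, 1.45 for Defb1, 1.18 for Vsx1 and 2.06 for Slc16a5, and with nodule 2 alone 0.53, 0.68, 0.32, 0.25 and 0.34 in the same order. At an unadjusted p under 0.05, 1 of 7 genes and 1348 of 11466 passed. With the rat as a block 0 of 7 were called too, and 4 of 7 passed unadjusted, as did 2518 of 11466 genes. With the block and without F06, 1 gene was called, Nefl (log2 1.24 ± 0.14, adjusted p 0.00977, edgeR), as were 300 of 11571 genes.

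At 20 weeks the differences were larger. All 8 nodules lay above the NT liver of their rat for Dnaaf1, Defb1, Vsx1 and Slc16a5, and 7 of 8 for Nefl, where nodule 1 of H28 held 0.769 times its NT liver. Median ratios were 4.38 for Nefl, 4.04 for Dnaaf1, 4.33 for Defb1, 4.59 for Vsx1 and 5.13 for Slc16a5, and the highest single ratio was 33.6 for Dnaaf1 in nodule 1 of H25. Without a block, 0 of 6 genes tested were called, as were 0 of 11546 genes (0%), with a smallest adjusted p over all genes of 0.0949. Pln was too low for the test. With log2 differences of 2.02 ± 0.58 for Nefl, 2.47 ± 0.70 for Dnaaf1, 2.15 ± 0.45 for Defb1, 1.95 ± 0.50 for Vsx1 and 2.24 ± 0.49 for Slc16a5, the adjusted p ran from 0.0949 to 0.112 in edgeR, and 5 of 6 genes and 2767 of 11546 passed unadjusted.

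With the rat as a block, which the design allows since nodules and NT liver came from the same animals, 5 of 6 genes were called at 20 weeks, all 5 higher in nodules, where 14.7% of genes were called and 9.21% were higher. With the 2 nodules of each rat added, 4 of them (Dnaaf1, Defb1, Vsx1 and Slc16a5) were higher in the nodules of every rat than in the NT liver of every rat, as were 6.84% of genes. Single nodules did not all lie so: nodule 2 of H25 held 5.74 CPM of Dnaaf1, 7.87 of Defb1 and 3.01 of Vsx1. The NT liver of H28 held 20.1, 8.97 and 4.43 CPM of these genes. The blocked log2 differences in edgeR were 2.15 ± 0.31 for Nefl (adjusted p 0.0127), 2.63 ± 0.39 for Dnaaf1 (adjusted p 0.0162), 2.22 ± 0.12 for Defb1 (adjusted p 1.61e-07), 1.89 ± 0.15 for Vsx1 (adjusted p 1.39e-05) and 2.31 ± 0.13 for Slc16a5 (adjusted p 5.47e-07). Added in this way, nodules were above the NT liver of the same rat in 4 of 4 rats for each of the 5 genes called, as they were for 23.6% of genes tested. Without F03, and so in H rats alone, the block left 3 of 6 called (Defb1, Vsx1 and Slc16a5), where 1488 of 11554 genes were called, while Nefl (log2 2.06, adjusted p 0.106, edgeR) and Dnaaf1 (log2 2.67, adjusted p 0.111, edgeR) did not pass. Without H26 only Nefl was lost of the 5 (adjusted p 0.0697, edgeR), and without H25 or H28 all 5 were called. DESeq2 without a block called the same 5, where it called 902 of 14151 genes. Without H25 the fit with no block called 2 (Defb1 and Nefl), and 445 of 11598 genes. Svop did not differ beyond its error (log2 0.02 ± 0.30, adjusted p 0.996, edgeR), with 5 of 8 nodules above NT liver. At 14 weeks 2 of 8 nodules were above for Svop and 5 of 8 for Pln, and at 20 weeks 3 of 8 for Pln.

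**Figure D3:**
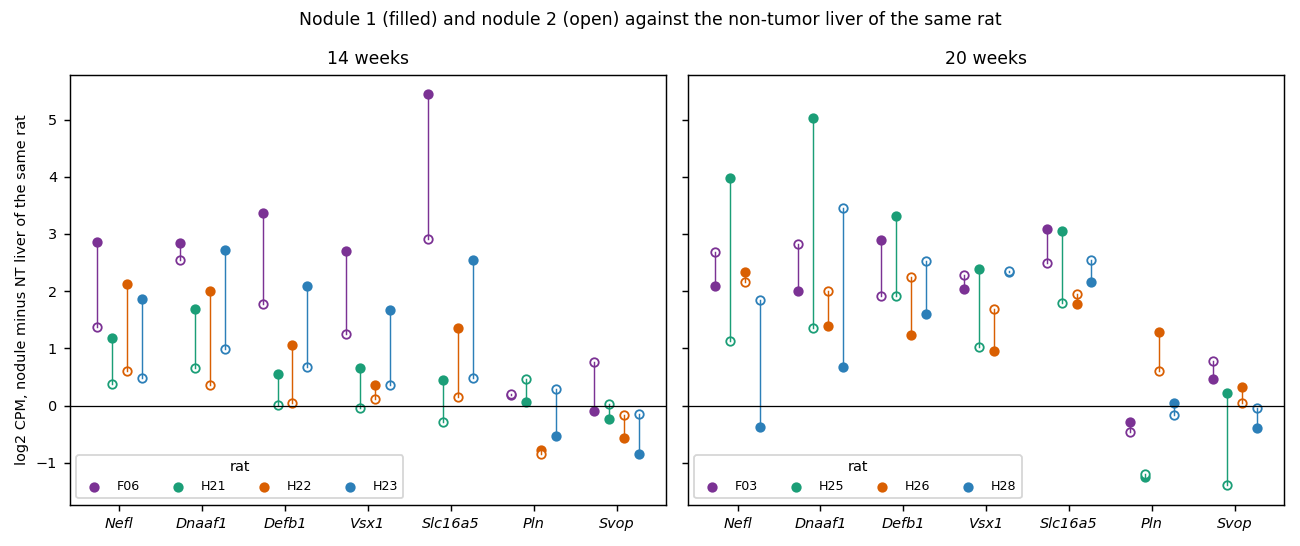
Log2 CPM (prior count of 2) of each nodule minus that of the NT liver of the same rat at 14 and 20 weeks, with nodule 1 filled, nodule 2 open and a line joining the nodules of a rat. At 14 weeks nodule 1 lies above nodule 2 in 4 of 4 rats for Nefl, Dnaaf1, Defb1, Vsx1 and Slc16a5, and at 20 weeks nearly all nodules lie above 0 for these genes but not for Pln and Svop.

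Whether the nodule difference itself changed from 14 to 20 weeks was tested as an interaction of tissue and week. None of the 7 genes was called (0 of 7, and 0 of 11781 genes, 0%), with 0 of 7 and 195 of 11781 genes at an unadjusted p under 0.05. With the rat as a block, 0 of 7 were called where 0.45% of genes were, and 2 of 7 passed unadjusted, as did 1574 of 11781 genes. The larger ratios at 20 weeks were thus not shown to differ from those at 14 weeks.

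The 2 nodules of 1 rat differed widely in the late genes. The mean absolute log2 difference between the nodules of a rat was 1.57 for Dnaaf1, 1.38 for Nefl, 1.12 for Slc16a5, 1.11 for Defb1 and 0.76 for Vsx1, against a median of 0.24 over 10290 genes. Of these genes 0.0972% differed more than Dnaaf1, 0.146% more than Nefl, 0.35% more than Slc16a5, 0.389% more than Defb1 and 2.82% more than Vsx1. The widest pair was H25 at 20 weeks, where nodule 1 held 74.1 CPM of Dnaaf1 and nodule 2 held 5.74 CPM, 12.9-fold apart. In H28 the order was turned, with 32.1 CPM of Dnaaf1 in nodule 1 and 221 CPM in nodule 2, and 17.7 and 83.1 CPM of Nefl. In H22 at 14 weeks nodule 1 held 179 CPM of Nefl and 149 CPM of Dnaaf1 and nodule 2 held 62.3 and 47.3 CPM. At 14 weeks nodule 1 had the higher level in 4 of 4 rats for all 5 genes, and at 20 weeks in 1 or 2 of 4. What the numbers 1 and 2 stand for was not given in the labels. Pln and Svop, with under 1 CPM on average over nodules, were not placed on this scale, and their nodules differed by at most 1.84-fold and 4.21-fold within a rat.

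Across the 28 DEN libraries, which come from 12 rats, the 5 late genes varied together, with Pearson's r of log2 CPM from 0.89 to 0.97 over their 10 pairs. Over the 24 libraries of 14 and 20 weeks r was 0.74 to 0.92, and over the 16 nodules 0.47 to 0.85. Pln and Svop had r of 0.93 with each other over 28 libraries, 0.91 over the 24 and 0.91 over the 16 nodules. Between the 2 sets r was -0.53 to -0.33 over 28 libraries , -0.18 to 0.11 over the 24 later ones and -0.38 to 0.04 over the 16 nodules. These r describe the libraries and carry no test.

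The genes whose levels ran most like Nefl, out of 10250 with a mean of at least 1 CPM, were Akr1b8 (r 0.97), an aldo-keto reductase, Slc7a11 (0.96), the cystine and glutamate exchanger, and Gstp1 (0.96), the glutathione transferase long used to mark preneoplastic foci in rat liver. Dnaaf1 ran most like Hap1 (0.97), Sox9 (0.97), a transcription factor of bile duct cells and liver progenitors, and Akr1b8 (0.97). For Defb1 they were Gstp1 (0.97), Akr1b8 (0.97) and Ggt1 (0.97), the gamma-glutamyltransferase that marks the same foci. Vsx1 ran most like Ggt1 (0.98), Ccdc92 (0.97) and Ddit4l2 (0.96), and Slc16a5 most like Gstp1 (0.97), Coro6 (0.96), a coronin that binds actin, and Grin2c (0.96), a subunit of NMDA receptors. Levels of Gstp1 in NT liver were 142 ± 117 CPM at 8 weeks, 1411 ± 685 at 14 weeks and 932 ± 416 at 20 weeks, and 2407 ± 656 and 2612 ± 1003 in nodules at 14 and 20 weeks (SD, n = 4 rats each), against at most 11.4 on average without DEN. Over the 16 nodules alone r stayed between 0.69 (Slc16a5 with Gstp1) and 0.94 (Dnaaf1 with Akr1b8) for these pairs.

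Pln ran most like Cdkn1a (r 0.95), the cell cycle inhibitor p21, Aldh1b1 (0.94), a mitochondrial aldehyde dehydrogenase, and RGD1561849 (0.93). Svop ran most like Ccng1 (0.92), cyclin G1, Cdkn1a (0.91) and Jam3 (0.90), a junctional adhesion molecule. Cdkn1a stood at 235 ± 33.6 CPM in NT liver at 8 weeks, 144 ± 21.8 at 14 weeks and 54.8 ± 13.5 at 20 weeks, against 44.4 ± 13 in the 20-week controls (SD, n = 4 each). Ccng1 stood at 96.2 ± 21.2, 81.9 ± 8.8 and 42.3 ± 5.62 CPM in the same groups, against 44.9 ± 8.43. Within the 16 nodules r was 0.95 for Pln with Cdkn1a and 0.88 for Svop with Ccng1.

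**Figure D4:**
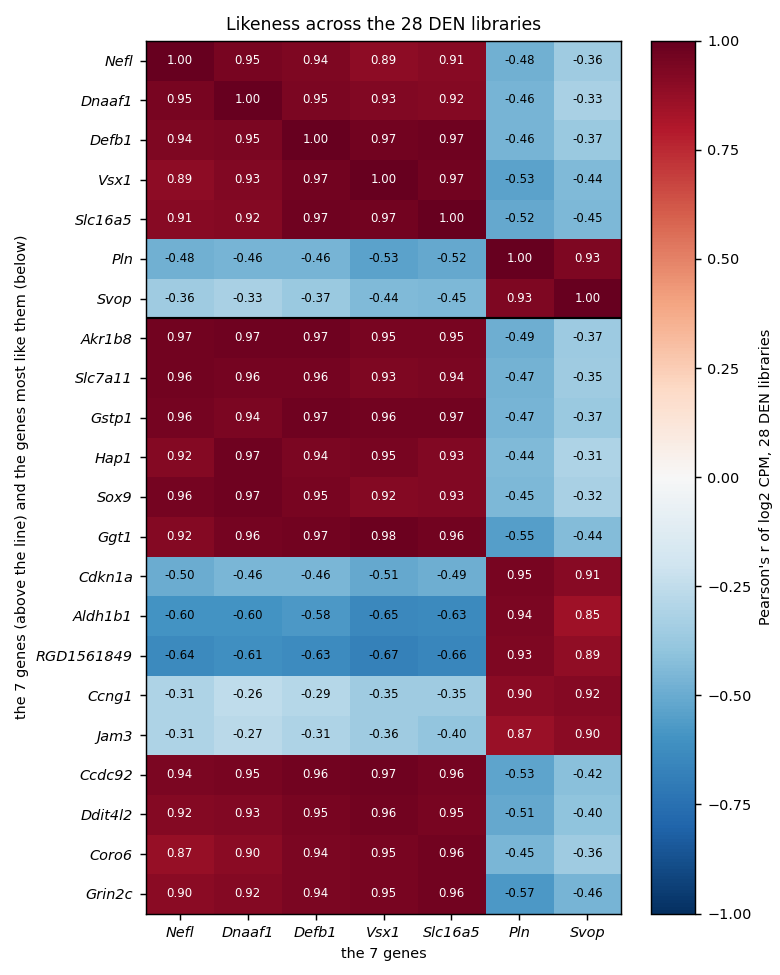
Pearson's r of log2 CPM over the 28 DEN libraries between the 7 genes (columns) and, in rows, the 7 genes and the genes most like each of them. The 5 late genes and their like genes form a block with r of 0.87 to 0.98, and Pln and Svop form another with r of 0.85 to 0.95.

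Genes of the same families or cell roles were then compared between DEN and no DEN. The 7 lists, 1 for each gene, held 126 genes, of which 113 were in the files and 45 to 55 had counts enough to be tested. In NT liver 17 were higher and 7 lower at 8 weeks (45 tested, where 16.5% of all genes were higher and 5.21% lower), 20 and 3 at 14 weeks (47 tested, 22.8% and 9.85%) and 9 and 2 at 20 weeks (45 tested, 14.3% and 3.82%). In nodules 24 were higher and 7 lower at 14 weeks (55 tested, 23.9% and 15.2%) and 18 and 5 at 20 weeks (53 tested, 23.6% and 15.2%). The larger part of the relatives found in the files were thus too low in liver, with and without DEN, to be tested. A gene near 0 in controls was tested only where the DEN samples carried it past the filter on low counts, so counts and list medians are not over the same genes in each comparison. For such genes, with at most 3 counts in every control library of the week, the ratio to controls is given with its 95% Poisson interval in place of the fitted difference.

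Among 11 other intermediate filament genes, Nefm, the medium neurofilament chain, was called higher at 14 and 20 weeks. Nefm was too low to be tested at 8 weeks (0.384 CPM). In NT liver at 14 weeks (8.25 CPM) and 20 weeks (6.23 CPM) and in nodules (15.3 and 29.8 CPM) the DEN samples carried it past the filter, so these calls are given without p. Its controls held 6 counts in all at 14 weeks and 2 counts at 20 weeks, and the ratios to them were 149 (68.3 to 405) and 255 (70.5 to 2103) in NT liver and 276 (127 to 752) and 1220 (338 to 10070) in nodules. Nefh, the heavy chain, rose by 0.98, 0.82, 1.22 and 1.39 in the same 4 comparisons. Vim, a filament of mesenchymal cells, rose in all 5 comparisons, by 0.80 to 1.47. Of the 7 or 8 genes of the list that could be tested, 4 to 6 were higher. Gfap was among those higher in NT liver at 8 weeks and was lower in nodules at 14 weeks. List medians were 0.57 to 1.26 against medians of all genes of -0.01 to 0.02.

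In the list of dynein arm and motile cilium genes around Dnaaf1, 0 of 5 were called in NT liver at 8 weeks, 2 of 7 rose at 14 weeks (Dnal1 and Ccdc39) and 0 of 5 were called at 20 weeks. In nodules 4 of 10 were called higher at both weeks, and Tekt1, Foxj1 and Rsph1 among them were not tested in NT liver, where they did not pass the filter on low counts. Tekt1, a filament protein of ciliary microtubules, held 1.03 and 1.47 CPM in nodules at 14 and 20 weeks, with ratios to 2 and 4 control counts of 55.7 (15.4 to 460) and 30 (11.7 to 110). Ccdc39 held 0.378 and 0.38 CPM, with ratios to 3 control counts at each week of 13.6 (4.66 to 66.1) and 10.4 (3.54 to 50.2). Foxj1, the transcription factor of motile cilia, held 0.607 and 0.454 CPM and rose by a log2 difference of 2.66 ± 0.45 at 14 weeks, and at 20 weeks its ratio to 3 control counts was 12.4 (4.23 to 59.9). Rsph1, a radial spoke protein, rose by 1.18 ± 0.33 and 1.39 ± 0.40. None was lower. List medians, over these unlike sets of genes, were -0.12, 0.21 and 0.11 in NT liver at 8, 14 and 20 weeks and 0.87 and 0.57 in nodules. Of 19 genes in the files, at most 10 could be tested.

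Of the antimicrobial genes listed with Defb1, the ones that rose were not defensins. S100a9, a calcium-binding protein of neutrophils, rose by 2.59 ± 0.38 in NT liver at 8 weeks, 1.62 ± 0.50 at 14 weeks and 0.97 ± 0.28 at 20 weeks, and Lyz2, the lysozyme of macrophages, rose in all 5 comparisons, by 0.82 to 1.61. In NT liver the number higher went from 5 of 6 at 8 weeks to 4 of 6 at 14 weeks and then 2 of 6, and in nodules from 4 of 7 to 2 of 6, with list medians of 0.67 to 1.58. Of the leukocyte markers the summed level was 124 to 138 CPM in NT liver at 8 weeks against 77.6 to 131 in controls, and its part in these rises was not tested. The next counted genes on both sides of Defb1, Defb50 and Defa5, stayed at or under 0.0593 CPM on average in every group.

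Among the calcium store genes listed with Pln, Camk2d, a calcium-dependent kinase, rose in NT liver by 0.57 ± 0.17 at 8 weeks and 1.08 ± 0.33 at 14 weeks and was not called at 20 weeks (0.90 ± 0.34, adjusted p 0.0695, edgeR) or in nodules (0.49 ± 0.30 and 0.78 ± 0.30). Ryr2, of the same list, was called lower in NT liver at 8 weeks (log2 -1.36 ± 0.43), when Pln was highest. Atp2a2, the pump that Pln inhibits, was called lower in nodules at both weeks. Itpr3, a calcium channel of the endoplasmic reticulum, rose in NT liver at the 3 times by 0.88 ± 0.20, 3.29 ± 0.36 and 2.17 ± 0.32 and by 3.82 ± 0.29 and 3.62 ± 0.39 in nodules. Counts were 3 higher and 2 lower of 9 tested in NT liver at 8 weeks, 3 and 0 of 8 at 14 weeks, 1 and 0 of 9 at 20 weeks, and 3 and 2 of 9 and 1 and 2 of 9 in nodules, with list medians of -0.46 to 0.16. Among synaptic vesicle genes, listed with Svop, Syn1, a synapsin, rose in NT liver by 1.09 ± 0.31 at 8 weeks and 1.13 ± 0.24 at 14 weeks and was not called at 20 weeks (0.34 ± 0.42), and in nodules it rose by 1.00 ± 0.22 and 1.13 ± 0.42. Syn2 was called higher in nodules, at 1.88 and 2.64 CPM against 1 control count at each week (ratios 203, 36.5 to 8024, and 216, 38.7 to 8510). In NT liver Syn2 was not tested at these weeks but held 1.39 and 0.791 CPM, with ratios of 150 (27 to 5938) and 64.7 (11.6 to 2555). Sv2a rose over its controls in NT liver by 1.39 ± 0.23 at 14 weeks and 1.05 ± 0.33 at 20 weeks. Svop too lay above its controls at 20 weeks, at a ratio of 2.96 (1.5 to 6.86). Of the synaptic vesicle list 1 was higher and 1 lower of 5 at 8 weeks, 2 of 5 were higher at 14 weeks, 1 of 5 at 20 weeks and 3 of 7 in nodules at each week, with list medians of 0.11 to 1.00.

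Only 1 or 2 of 17 eye and paired-type homeobox genes listed with Vsx1 could be tested in any comparison. Lhx2 rose at 8 weeks (0.88 ± 0.19), Prrx1 was called higher at 14 weeks in NT liver (ratio to 7 control counts 5.59, 2.71 to 13.9) and nodules (5.23, 2.54 to 13), and none was called at 20 weeks (0 of 1 in each tissue), with list medians of -0.04 to 1.19. The monocarboxylate carriers around Slc16a5 moved in opposite directions, with 3 higher and 4 lower of 12 at 8 weeks, 3 and 3 at 14 weeks and 1 and 2 at 20 weeks in NT liver, 3 and 4 and 2 and 3 in nodules, and list medians of -0.17 to 0.13. Slc16a3, a lactate exporter, rose by 1.42 ± 0.36 at 8 weeks, 2.05 ± 0.44 at 14 weeks and 2.31 ± 0.57 and 1.87 ± 0.55 in nodules, and Slc16a6 rose in the same 4 comparisons by 0.82 to 2.66. Slc16a10, an aromatic amino acid transporter, fell in all 5 comparisons (log2 -0.52 to -1.66).

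The nearest counted genes on the chromosome, taken from RefSeq order in GRCr8 alone, were compared between DEN and no DEN too. Nefm is the next counted gene to Nefl. Hid1, next to Slc16a5, rose by 0.85 ± 0.14, 2.43 ± 0.27 and 1.79 ± 0.26 in NT liver at 8, 14 and 20 weeks and by 2.59 ± 0.32 and 2.68 ± 0.28 in nodules, and Grin2c, among the genes most like Slc16a5, lies on the same side with 16 annotated and 6 counted genes between them. Acss1, next to Vsx1, rose by 0.65 to 2.41 in all 5 comparisons. Hsdl1, which overlaps Dnaaf1, stayed under the size threshold of 0.5 in all 5 (log2 -0.16 to 0.38), as did Usp30, which overlaps Svop on the other strand (log2 -0.24 to 0.03). Cep85l, which overlaps Pln on the other strand, fell in 4 of the 5, including NT liver at 8 weeks (log2 -0.68 ± 0.22), when Pln was highest. Of the next genes on the other side, Gnrh1 by Nefl was too low to be tested. Taf1c by Dnaaf1 (log2 0.65 ± 0.23 and 0.60 ± 0.14), Asf1a by Pln (0.56 ± 0.15 and 0.56 ± 0.17) and Entpd6 by Vsx1 (0.87 ± 0.16 and 1.00 ± 0.22) rose in nodules at both weeks, and Entpd6 rose also in NT liver at 14 weeks (0.62 ± 0.20). Armc7 by Slc16a5 rose in nodules at 14 weeks alone (0.72 ± 0.15), and Dao by Svop fell in NT liver and nodules at 14 weeks (log2 -0.70 ± 0.10 and -0.71 ± 0.12). Per the study's methods counting was by strand (reverse), so Cep85l and Usp30 were counted apart from Pln and Svop. The strand of Dnaaf1 was not in the reference used here, and whether its reads were told apart from those of Hsdl1 was not tested.

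Markers of other cell types moved in some of the same libraries. The 7 bile duct markers in the files, of 8 listed, summed to 17.4 to 25.1 CPM without DEN, 31.6 to 40.1 in NT liver at 8 weeks, 42.2 to 92.5 at 14 weeks and 37 to 58.9 at 20 weeks, and 64.9 to 152 and 51.1 to 213 in nodules at 14 and 20 weeks. None was at 0 in a whole group, and Sox9, 1 of the 7, is also 1 of the genes most like Dnaaf1. The 9 nerve and Schwann cell markers summed to 1.22 to 2.47 CPM without DEN, 2.6 to 5.8 in NT liver under DEN and 3.9 to 12.7 in nodules, with Elavl4 at 0 in all 40 libraries and Rbfox3 at 0 in 6 of the 8 groups. Of these markers S100b stood at 0.132 to 0.265 CPM on average in the control groups and at 3.81 and 4.97 CPM in nodules at 14 and 20 weeks, Tubb3 at 0.0631 to 0.135 against 1.1 and 0.666 CPM, and Ncam1 at 0.0634 to 0.137 against 0.677 and 0.49 CPM. The 8 hepatocyte markers summed to 2.48e+05 to 2.93e+05 CPM without DEN and 2.10e+05 to 2.63e+05 CPM in NT liver at 8 weeks, and were lower in the groups where these 5 genes were high, at 1.53e+05 to 2.00e+05 CPM in NT liver and 1.23e+05 to 1.87e+05 CPM in nodules at 14 weeks, and at 1.92e+05 to 2.64e+05 CPM in NT liver and 9.88e+04 to 2.17e+05 CPM in nodules at 20 weeks, where NT liver overlapped with the controls. The part of hepatocytes, bile duct and nerve cells in the levels of Nefl, Dnaaf1, Defb1, Vsx1 and Slc16a5 was not tested.

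The 10 skeletal and heart muscle markers summed to at most 3.93 CPM in any library, with Myh7 at 0 in every DEN group and Mb at 0 in 7 of the 8 groups. They summed to 1.05 to 1.21 CPM in NT liver at 8 weeks, when Pln was highest, against 0.293 to 0.559 CPM in the controls of that week. Between these groups Tnnt3 went from 0.126 to 0.463 CPM on average, Tnnt2 from 0 to 0.23 CPM and Acta1 from 0.0107 to 0.134 CPM, while Actn2 went from 0.287 to 0.25 CPM, Tnni1 from 0.0107 to 0.00759 CPM and Ckm from 0.01 to 0.0159 CPM. In nodules at 14 and 20 weeks Tnnt2 reached 0.933 and 0.547 CPM and Acta1 0.519 and 0.629 CPM. The 5 ciliated epithelium markers in the files, of 9 listed, summed to at most 2.08 CPM under DEN and 0.922 CPM without it, with Sntn at 0 in all libraries. Foxj1 stood at 0.037 to 0.0956 CPM on average in the control groups and 0.607 and 0.454 CPM in nodules, and Rsph1 at 0.0534 to 0.149 against 0.348 and 0.329 CPM. Tppp3 stood at 0.367 to 0.564 CPM in the control groups against 0.524 and 0.559 CPM in nodules, and Dnai1 at 0.0469 to 0.0863 against 0.0823 and 0.0962 CPM. Smooth muscle and stellate cell markers summed to 140 to 154 CPM in NT liver at 8 weeks against 106 to 128 in its controls, and endothelial markers to 136 to 138 CPM against 73.4 to 116. The part of these cells in the levels of Pln, Svop and Dnaaf1 was not tested.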

How the data were processed

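RNA-seq was made from 40 liver and nodule libraries of 24 rats. Per the labels and the study's methods, the authors aligned reads with STAR 2.7.1a to the rat build rn6, counted them on exons by strand (reverse) with HTSeq, leaving out reads with several alignments, and compared groups with DESeq2 1.22.2. The deposited files hold raw counts of read pairs per gene. The HTSeq summary lines stayed out of library sizes and tests (median 23.9% of pairs outside exons, 1.05% ambiguous and 10.5% in several places).

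The 7 genes, the lists of related genes and markers and the tests were chosen with earlier results of these data known. Counts were scaled by TMM in edgeR 4.0.16 (R 4.3.3), and counts of nodules 1 and 2 from the same rat were summed for the tests. Genes passing filterByExpr were tested with edgeR's quasi-likelihood F test, two-sided, adjusted by Benjamini-Hochberg over all genes tested, and called at an adjusted p of at most 0.05 and a log2 difference of at least 0.5 in size. The fit was checked on simulated counts with known changes. Named besides the 7 genes are the 3 genes most like each of them (Pearson's r of log2 CPM, prior count 2, mean of at least 1 CPM), at most 4 called genes of each related list with the largest change, and the nearest counted neighbours. Further genes of those lists (Dnal1, Gfap, Atp2a2) were named after their values were seen. Values of 1 gene that the rule names are not reported here. Groups of 4 rats are separate animals.

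Nodules and NT liver share rats, and samples of 1 rat deviated together from their group means in all 8 rats (r 0.37 to 0.54), so fits with the rat as a block are given beside those without. Folds over controls with no counts use 3 counts per library as a floor, and the others carry 95% Poisson intervals, which cover counting error only. Alternatives were DESeq2 1.42.0, RLE size factors, no filter, 1 fit over all 8 groups, leaving out each rat, H rats alone, and single nodules. Chosen after the data were seen were the block without single rats, r over the 24 later libraries and over the 16 nodules, the p53 motif and the split of the genes into 2 time courses. A looser p53 search (3 mismatches) was tried after the one given had found no match in the promoters shown, and is not reported. Sequences and gene order come from RefSeq for GRCr8, and no coordinate was carried between builds. Comparisons of the relatives with no DEN at a given week share the same controls for NT liver and nodules.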

Additional observations from a re-analysis of the deposited data

Results flagged for a closer look

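The highest or lowest library was compared with the rest of its group for each of the 7 genes, leaving out groups with at most 3 counts in every library. Of 40 pairs of gene and group, 5 held a library far from the others by the gap between it and its neighbour over the range (Dixon's 95% limit), and chance alone flags about 1 in 20 where values are independent, which the 2 nodules of a rat are not. Nodule 1 of H22 at 14 weeks stood far above the other 7 nodules for Nefl, at 179 CPM with the next at 62.3 CPM, and for Dnaaf1, at 149 CPM with the next at 75.8 CPM. For Dnaaf1 at 20 weeks it was nodule 2 of H28, at 221 CPM with the next at 82.9 CPM. Pln stood at 0.283 CPM in nodule 1 of H26 at 20 weeks, which was 8 counts, with the next at 0.154 CPM. Among the 8-week controls, Svop was at 0.32 CPM in H07, or 8 counts, with the next at 0.043 CPM. The part of any sampling or library step in these values was not tested.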

How the results depend on the processing

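The counts of genes called between NT liver at 14 and 8 weeks ranged from 6 to 7 of 7 over all alternatives, and that between NT liver at 20 and 14 weeks was 2 in each. None of the 7 genes was called in the interaction of tissue and week under any alternative run, and between nodules and NT liver at 14 weeks none was called except 1 with the replicate block in H rats alone (without F06). Between nodules and NT liver at 20 weeks the count moved from 0 to 5 with the rat as a replicate block (3 to 5 without single rats, 3 in H rats alone), 5 with DESeq2, 4 in 1 fit over all 8 groups and 2 with nodule 1 alone, while the calls over all genes went from 0 of 11546 to 1693 of 11546, 902 of 14151, 1096 of 11596 and 218 of 11130, and was 0 to 2 without single rats (2 without H25). Between nodules at 20 and 14 weeks the count of 2 became 0 in H rats alone, 0 with nodule 1 alone and 1 with nodule 2 alone, and was 0 to 2 without single rats. For these moves, other than those with fewer samples, the cause was not tested. Differences near 0 changed sign: Svop in nodules against NT liver at 20 weeks came to -0.20 in H rats alone and with nodule 2 alone to -0.070, and ranged from -0.20 to 0.22 without single rats, with the replicate block it came to -0.15 in H rats alone and -0.042 without H26; at 14 weeks with nodule 2 alone Pln came to 0.085 and Svop to 0.046, and Pln ranged from -0.17 (without H21) to 0.12 (without H22, 0.11 with the replicate block). Dnaaf1 in NT liver at 20 against 14 weeks ranged from -0.96 (without H26) to 0.049 (without H22). The counts of related genes called in H rats alone fell from 24 to 15 in NT liver at 8 weeks and from 11 to 7 at 20 weeks, where leaving out single rats gave 7 to 15 (7 without F03, H28 or the controls H14 or H16). With 4 rats a group and counts under 15 at 20 weeks, depth limits what can be said of Pln there. Mean levels of the 7 genes moved by more than their SD in 6 of 133 alternatives that kept all rats or left out the F rats, and in 0 of 140 without single rats.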
